A study of Homo sapiens with 4 samples.

Results

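Antisense RNAs are transcripts made from the strand opposite to a known gene, and those with the suffix -AS1 carry the symbol of that gene. The 499 antisense RNAs described here were the rows of the count table whose symbol ended in -AS1 and that reached 10 counts in 2 or more of the 4 libraries, out of 19210 features that met the same minimum and 56303 features in all. Of the 1029 rows with this ending, 528 fell below the minimum and 2, OIP5-AS1 and EPB41L4A-AS1, were left out by name. The gene before the suffix, called the sense gene below, was in the table for 494 of the 499 and met the minimum for 478, which gave 478 pairs. At the edge of the minimum, 35 members had 10 counts in exactly 2 libraries, with summed counts of 24 to 76. The 54 rows just outside had 10 counts in 1 library only, with summed counts of 11 to 52.

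The libraries came from Huh7, a line established from a human hepatocellular carcinoma, and the cells carried a plasmid with a short hairpin RNA against RBM39 (shRBM39) or a control hairpin (shControl). RBM39 is an RNA-binding protein of the spliceosome. From each of the 2 cultures there was an immunoprecipitate (IP) made with an RBM39 antibody and an input, so each of the 4 groups (shRBM39 IP, shRBM39 input, shControl IP and shControl input) held 1 library, and there was no IP with a control antibody. Recovery below means IP over input, and recovery that does not depend on RBM39 cannot be told apart from recovery that does.

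Antisense RNAs can start close to their sense gene and run away from it, overlap its end or its start, or lie wholly inside it on the other strand. Some, such as CDKN2B-AS1, are known to act on the chromatin of neighbouring genes, while for most no function is known. Transcription start sites that point away from each other often share 1 promoter rich in CG dinucleotides. Reads of an antisense RNA and its sense gene come from complementary strands of the same DNA where the 2 overlap, so a count that ignores strand assigns them by position alone. The strand setting used for these counts is not given in the sources used here, and shared reads are therefore possible in every overlapping pair.

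By RefSeq gene spans on GRCh38.p14, 373 members overlapped their sense gene, 107 of them wholly inside its span and 266 in part. A further 115 lay apart from it, 72 clear of any RefSeq span and 43 on the span of another gene. The other 11 could not be placed against a sense gene. Of these, 10 were not matched in RefSeq, and RPARP-AS1 was matched without its sense gene. Both start sites were known for 337 pairs, and all 337 ran on opposite strands. In 155 of these the start sites were at most 1000 bases apart, and 80 of the 155 had spans that did not overlap. The annotation behind the counts is not given in the sources used here, so these classes describe RefSeq and not necessarily the intervals that were counted.

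The libraries held 45812488 counts (shRBM39 IP), 22249581 (shRBM39 input), 41387762 (shControl IP) and 20858382 (shControl input), and the members took 0.393%, 0.409%, 0.433% and 0.415% of them in the same order. The median member had 73 counts in the shRBM39 IP and 42 in the shRBM39 input, against 82 in the shControl IP and 45 in the shControl input. RBM39 itself had 370.3 CPM (TMM-scaled counts relative to library size) in the shRBM39 input and 403.8 CPM in the shControl input, a log2 ratio of -0.13, so the hairpin is barely visible at the RNA level and shRBM39 stands below for what the label says. The hepatocyte genes ALB, AFP, APOA1, TTR and FGB were all present in both inputs, with ALB at 2212 CPM in the shRBM39 input and 2963 CPM in the shControl input. All ratios are log2 after TMM scaling with 0.5 added to each count. Features are listed as higher or lower where the ratio reached 2-fold and the 95% interval of counting error left out equality. With 1 library per group there is no replicate check and no p-value for these lists.

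In shRBM39 cells, 30 members were recovered at a higher level in the IP than in input and 49 at a lower level. These are 6.01% and 9.82% of the members, where 5.29% and 9.00% of all features were listed. In shControl cells 23 members were higher and 78 lower, which is 4.61% and 15.6% of the members against 7.70% and 11.3% of all features. The median log2 IP over input of the members was -0.11 in shRBM39 cells and -0.20 in shControl cells, where the medians of all features were 0.02 and -0.01. The 478 sense genes had medians of 0.03 in shRBM39 cells and 0.08 in shControl cells. In shRBM39 cells the shares of listed members were close to those of all features. In shControl cells a smaller share of members than of all features was listed as higher and a larger share as lower. Among the 379 members with at least 100 summed counts, 4.49% were higher and 11.6% lower in shControl cells. Without the members of fewer counts, the share listed as lower was thus close to that of all features, which were not limited to that depth.

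The lists of the cultures, which share no library, held 5 members listed as higher in both. These 5 are 16.7% of the shRBM39 list and 21.7% of the shControl list. They were H1FX-AS1, PSMG3-AS1, ARAP1-AS1, AGAP2-AS1 and GLIS3-AS1, of which AGAP2-AS1 and GLIS3-AS1 fall outside the naming rule and were picked after their values were seen. In shControl cells GLIS3-AS1 had 11 IP counts and 0 input counts, which against a floor of 3 counts is at least 1.75-fold higher, so its 2-fold listing there rests on the 0.5 added to each count. Another 26 members were lower in both cultures, 53.1% of the shRBM39 list and 33.3% of the shControl list. The members higher in both were 1.0% of all 499 and those lower in both 5.21%, where 2.27% and 5.10% of all 19210 features were listed in the same way. The 436 features higher in both were 42.9% of the shRBM39 list of all features and 29.5% of the shControl list, and the 979 lower in both were 56.6% and 45.1%. No member was listed as higher in one culture and lower in the other, and 30 of all features were.

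**Figure D1:**
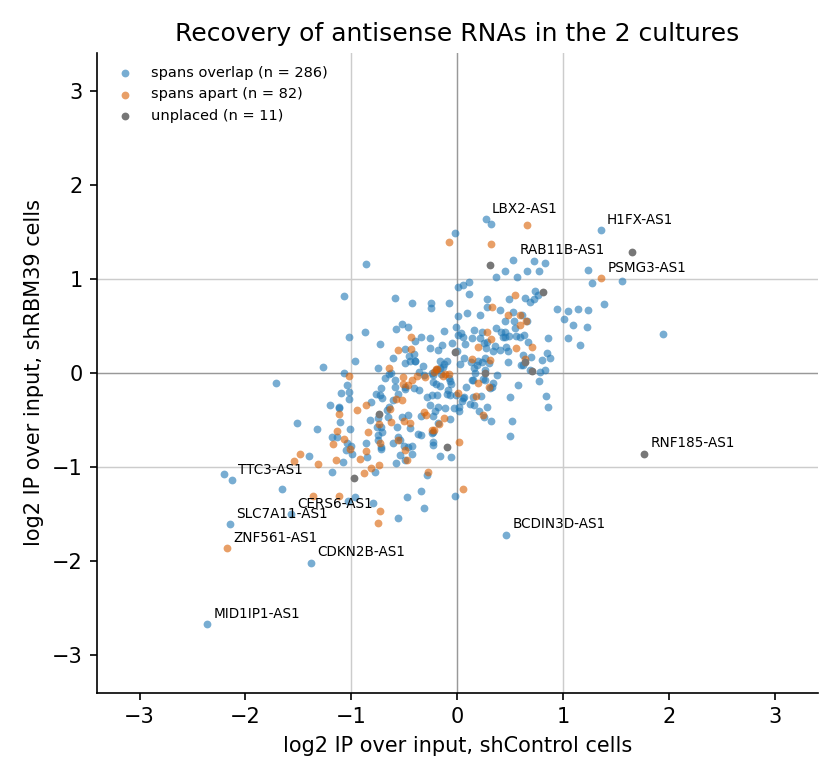
Log2 IP over input of the 379 members with at least 100 summed counts, in shRBM39 cells (vertical axis) and shControl cells (horizontal axis), 1 point per member. Blue points overlap the sense span (286), orange points lie apart from it (82), grey points are unplaced (11), and thin lines mark 2-fold. MID1IP1-AS1 lies lowest in both cultures at -2.67 and -2.36, and H1FX-AS1 is high in both at 1.51 and 1.35.

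Among members with at least 100 summed counts, those ranked lowest in IP over input were MID1IP1-AS1, ZNF561-AS1, SLC7A11-AS1, CERS6-AS1, CDKN2B-AS1, TTC3-AS1 and ARNTL2-AS1. They are the 5 lowest of each culture by the interval bound nearer to 0, and members with fewer counts reached lower ratios. MID1IP1-AS1 (chrX:38801248-38803883) overlaps the gene of a protein that promotes fatty acid synthesis. It had 28 counts in the shRBM39 IP and 95 in its input, against 58 in the shControl IP and 143 in its input. Its log2 IP over input was -2.67 (interval -3.35 to -2.07) in shRBM39 cells and -2.36 (-2.84 to -1.92) in shControl cells. Both IP libraries thus had fewer counts than the inputs although they were sequenced more deeply.

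MID1IP1 itself did not share this depletion. It had 1585 counts in the shRBM39 IP and 667 in its input, with a log2 ratio of 0.32, and 2632 in the shControl IP and 756 in its input, with a log2 ratio of 0.73. The antisense RNA made up 1.74% of the counts of the pair in the shRBM39 IP and 12.5% in its input, against 2.16% in the shControl IP and 15.9% in its input. The antisense minus sense difference was -2.99 (interval -3.61 to -2.38) in shRBM39 cells and -3.09 (-3.55 to -2.64) in shControl cells, the lowest ranked in shControl cells of the pairs with at least 100 summed counts on both sides.

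SLC7A11-AS1 and CERS6-AS1 were depleted together with their sense genes. SLC7A11 encodes the cystine transporter and CERS6 a ceramide synthase. SLC7A11-AS1 had 124 counts in the shRBM39 IP and 199 in its input, against 170 in the shControl IP and 360 in its input, with log2 ratios of -1.61 in shRBM39 cells and -2.15 in shControl cells. SLC7A11 had log2 ratios of -1.46 in shRBM39 cells and -1.52 in shControl cells. CERS6-AS1, with 546 counts in the shRBM39 IP and 815 in its input, against 621 in the shControl IP and 879 in its input, had log2 ratios of -1.51 and -1.57 in the same order of cultures. CERS6 had -1.35 in shRBM39 cells and -1.19 in shControl cells. For both pairs the sense gene lay on the same side of 2-fold as the antisense RNA in each culture.

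TTC3-AS1 lies inside TTC3, which encodes an E3 ubiquitin ligase, and was depleted with it. It had 248 counts in the shRBM39 IP and 287 in its input, against 203 in the shControl IP and 423 in its input. Its log2 ratios were -1.14 in shRBM39 cells and -2.13 in shControl cells, where TTC3 had -1.33 and -1.79. ARNTL2-AS1, named after a partner of the circadian CLOCK protein, had -1.07 in shRBM39 cells and -2.20 in shControl cells, where ARNTL2 had -1.66 and -1.89. CDKN2B-AS1, the RNA also called ANRIL that crosses the gene of the cell cycle inhibitor p15, went apart from its sense gene. It had 27 counts in the shRBM39 IP and 58 in its input, against 45 in the shControl IP and 56 in its input, with log2 ratios of -2.02 in shRBM39 cells and -1.38 in shControl cells. CDKN2B had 0.08 in shRBM39 cells and 0.02 in shControl cells.

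Among the members recovered most in the IP, H1FX-AS1 had the largest counts. H1FX encodes a linker histone and is named H1-10 in current RefSeq. H1FX-AS1 had 4262 counts in the shRBM39 IP and 784 in its input, against 4893 in the shControl IP and 914 in its input, with log2 ratios of 1.51 in shRBM39 cells and 1.35 in shControl cells. H1FX had 4602 counts in the shRBM39 IP and 840 in its input, against 5314 in the shControl IP and 982 in its input, with log2 ratios of 1.52 and 1.37. The antisense and sense values differed by less than counting error in both cultures. In RefSeq, H1FX-AS1 (chr3:129316271-129324569) shares only 16 bases with the span of H1FX.

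PSMG3-AS1 was high in the IP of both cultures without its sense gene, a proteasome assembly chaperone. It lies clear of any RefSeq span, at chr7:1570073-1589626, with a gap of 40 bases to PSMG3. PSMG3-AS1 had 356 counts in the shRBM39 IP and 93 in its input, against 421 in the shControl IP and 78 in its input. Its log2 ratios were 1.0 in shRBM39 cells and 1.36 in shControl cells, where PSMG3 had 0.11 and -0.24. The listing of PSMG3-AS1 in shRBM39 cells thus lies at the edge of the 2-fold threshold. RAB11B-AS1, named after a small GTPase of recycling endosomes, had log2 ratios of 1.20 in shRBM39 cells and 0.53 in shControl cells, where RAB11B had 1.24 and 1.13. CEBPB-AS1, whose sense gene encodes a leucine zipper transcription factor of the liver, had 1.17 in shRBM39 cells and 0.83 in shControl cells, where CEBPB had 0.97 and 1.24. ARAP1-AS1, which could not be placed, had 1.29 in shRBM39 cells and 1.65 in shControl cells, where ARAP1 had 0.97 and 1.12.

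A test over both cultures was possible with edgeR's quasi-likelihood model of culture and fraction, which has 1 residual degree of freedom. At a Benjamini-Hochberg adjusted p under 0.05, 34 members were higher and 76 lower in IP than in input, 6.81% and 15.2% of the members, where 19.2% and 17.6% of all features were called. Both shares were therefore below those of all features in this fit, more so for the share called higher. With no filter on low counts, the share called lower was above that of all features (12.8% against 8.27%). Calls at an adjusted p also depend on depth, and the members had a median of 247 summed counts. Whether depth explains the lower shares was not tested. The fit gave MID1IP1-AS1 a log2 ratio of -2.51 (edgeR adjusted p = 3e-06), CERS6-AS1 -1.54 (adjusted p = 5.07e-07) and SLC7A11-AS1 -1.89 (adjusted p = 1.77e-06). H1FX-AS1 had 1.43 (edgeR adjusted p = 1.25e-06). Without the culture term edgeR called 0 members in either direction, with 13 higher and 49 lower at an unadjusted p under 0.05, and 0 of all 19210 features. DESeq2 with the culture term called 16 members higher and 29 lower, 3.21% and 5.81% of the members, where 13.5% and 10.9% of all features were called.

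Across the 478 pairs, antisense and sense log2 IP over input had a Pearson r of 0.38 in shRBM39 cells and 0.37 in shControl cells. For the 97 pairs with at least 1000 summed counts on both sides, r was 0.70 in shRBM39 cells and 0.75 in shControl cells. In the 16 such pairs with the antisense RNA inside the sense span, r was 0.88 in shRBM39 cells and 0.94 in shControl cells, and in the 64 with partial overlap it was 0.71 and 0.76. In the 14 such pairs with spans apart it was 0.39 in shRBM39 cells and 0.56 in shControl cells, and in the 11 of them clear of any RefSeq span 0.48 and 0.72. For all 111 pairs with spans apart, of any depth, it was 0.24 in shRBM39 cells and 0.20 in shControl cells. At 100 summed counts on both sides, the 269 overlapping pairs had 0.51 in shRBM39 cells and 0.59 in shControl cells, and the 78 pairs apart had 0.11 and 0.26. These correlations are descriptions. All points share the same libraries, overlapping pairs may share reads, and members apart had lower counts, with a median sum of 152 against 282 for overlapping members.

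**Figure D2:**
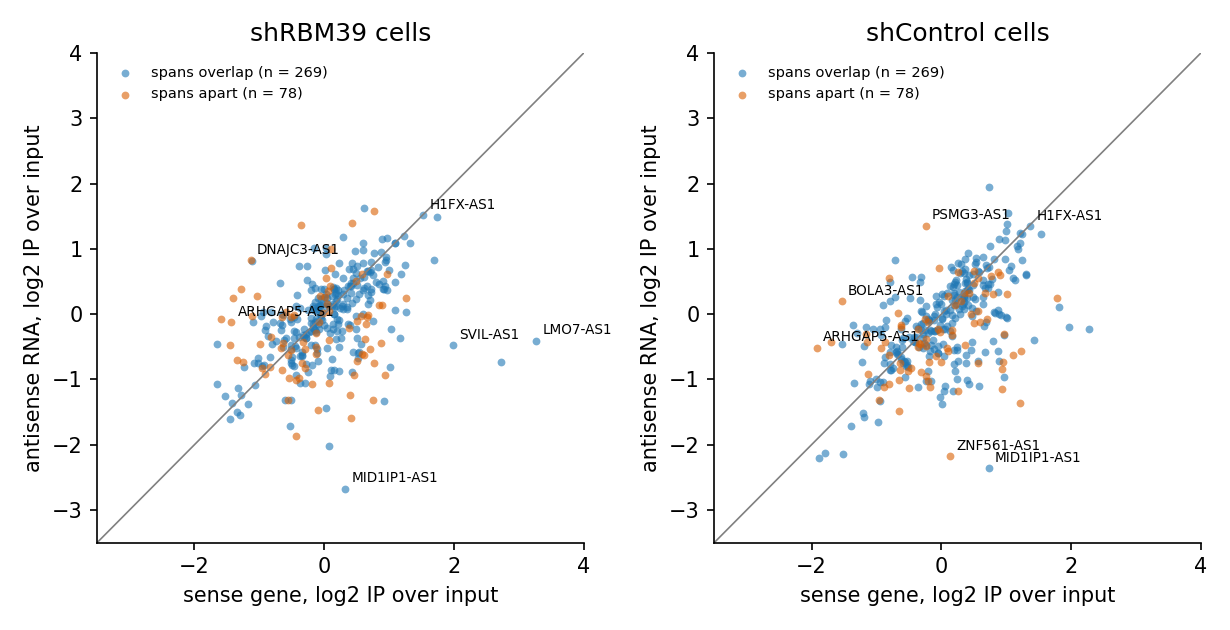
Log2 IP over input of the antisense RNA (vertical axis) against its sense gene (horizontal axis) in shRBM39 cells (left) and shControl cells (right), for pairs with at least 100 summed counts on both sides. Blue points are the 269 pairs with overlapping spans and orange points the 78 with spans apart, while 10 unplaced pairs are not drawn, and the line marks equal values. Overlapping pairs lie closer to the line, and LMO7-AS1 and SVIL-AS1 lie far below it in shRBM39 cells.

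Among the 97 deep pairs, 29 had antisense and sense values within 0.25 on the log2 scale in all of the recovery of both cultures and the input comparison. They were 10 of the 16 inside pairs, 17 of the 64 partly overlapping pairs and 2 of 3 unplaced pairs, with 0 of 14 pairs apart. Among the closest were H1FX-AS1, MIF-AS1, SGO1-AS1, RNF219-AS1, NOP14-AS1 and UBE2Q1-AS1. They are named for this closeness, and MIF-AS1 and RNF219-AS1 fall outside the naming rule. Across the 4 libraries the antisense share of such a pair hardly moved. H1FX-AS1 made up 48.1% of the counts of its pair in the shRBM39 IP and 48.3% in its input, against 47.9% in the shControl IP and 48.2% in its input.

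MIF-AS1, on the gene of a secreted cytokine, held 51.0% of its pair in the shRBM39 IP and 50.5% in its input, against 51.1% in the shControl IP and 50.6% in its input. SGO1-AS1 lies inside SGO1, the protector of centromeric cohesion, and held 45.8% in the shRBM39 IP and 45.1% in its input, against 44.4% in the shControl IP and 45.0% in its input. NOP14-AS1, which overlaps a ribosome biogenesis gene over 13143 bases, held 21.8% in the shRBM39 IP and 21.5% in its input, against 22.3% in the shControl IP and 21.5% in its input. In each of these pairs the share was nearly the same in all 4 libraries, whatever the recovery. UBE2Q1-AS1, for example, had a log2 IP over input of -0.23 in shRBM39 cells and -0.07 in shControl cells, beside -0.16 and 0.01 for UBE2Q1, a ubiquitin-conjugating enzyme. For these pairs, antisense and sense counts cannot be told apart as separate signals without the strand setting and the annotation that was counted.

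**Figure D3:**
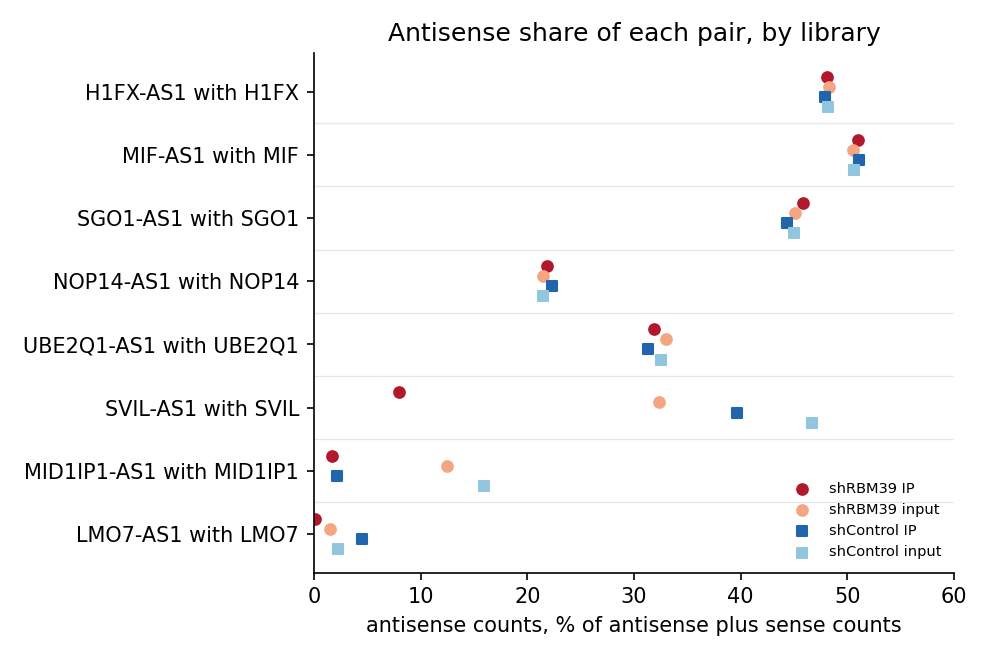
Antisense counts as a percentage of antisense plus sense counts (horizontal axis) for 8 pairs, 1 row each, with 1 point for each of the 4 libraries. The share of H1FX-AS1 stays between 47.9% and 48.3%, while that of SVIL-AS1 is 8.02% in the shRBM39 IP and 46.7% in the shControl input.

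Other pairs came apart. The antisense RNA was recovered at least 2-fold more than its sense gene in 23 pairs (4.81%) and at least 2-fold less in 62 (13.0%) in shRBM39 cells, and in 24 (5.02%) and 75 (15.7%) pairs in shControl cells. Among the 111 pairs with spans apart, where shared reads are not given by the annotation, 9 were higher and 22 lower in shRBM39 cells, and 6 and 20 in shControl cells. Among the 357 overlapping pairs, 14 were higher and 39 lower in shRBM39 cells, and 17 and 55 in shControl cells. The pairs listed as lower outnumbered those listed as higher in both classes and both cultures.

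An antisense RNA recovered more than its sense gene was seen for ARHGAP5-AS1, KTN1-AS1, BOLA3-AS1, DNAJC3-AS1 and SCAMP1-AS1, all clear of any RefSeq span, whose sense genes lay below input in both cultures. ARHGAP5 encodes a GTPase-activating protein. ARHGAP5-AS1 had 580 counts in the shRBM39 IP and 332 in its input, against 708 in the shControl IP and 482 in its input, with log2 ratios of -0.12 in shRBM39 cells and -0.51 in shControl cells. ARHGAP5 had 28904 counts in the shRBM39 IP and 41019 in its input, against 41263 in the shControl IP and 74341 in its input, with log2 ratios of -1.43 and -1.92. The difference was 1.31 (interval 1.11 to 1.5) in shRBM39 cells and 1.40 (1.24 to 1.57) in shControl cells. It was carried by the low recovery of ARHGAP5, with the antisense RNA nearer to equality.

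EGFR-AS1 gave a similar difference from inside its sense gene, the receptor of epidermal growth factor. EGFR-AS1 had log2 IP over input of 0.03 in shRBM39 cells and 0.26 in shControl cells, where EGFR had -0.95 and -0.72. The difference was 0.98 in both cultures (intervals 0.81 to 1.16 and 0.79 to 1.16), just under 2-fold.

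For ZNF561-AS1, BOLA3-AS1, KTN1-AS1 and DNAJC3-AS1 the start windows are printed below, because these RNAs start at most 250 bases from a sense gene that runs the other way, yet differed from it in recovery. BOLA3 functions in mitochondrial iron-sulfur cluster assembly, KTN1 anchors kinesin at the endoplasmic reticulum and DNAJC3 is a chaperone of that compartment. Each window holds the 250 bases before and the 50 bases from the start of the antisense RNA, read on its own strand, from RefSeq on GRCh38.p14. Capitals mark CG dinucleotides. ZNF561-AS1 is at chr19:9621232-9621531 on the plus strand, and the start of ZNF561 lies 250 bases away. BOLA3-AS1, named BOLA3-DT in RefSeq, is at chr2:74147731-74148030 on the plus strand, at 69 bases. KTN1-AS1 is at chr14:55580043-55580342 on the minus strand, at 115 bases, and DNAJC3-AS1, named DNAJC3-DT, is at chr13:95676876-95677175 on the minus strand, at 214 bases.
ZNF561-AS1: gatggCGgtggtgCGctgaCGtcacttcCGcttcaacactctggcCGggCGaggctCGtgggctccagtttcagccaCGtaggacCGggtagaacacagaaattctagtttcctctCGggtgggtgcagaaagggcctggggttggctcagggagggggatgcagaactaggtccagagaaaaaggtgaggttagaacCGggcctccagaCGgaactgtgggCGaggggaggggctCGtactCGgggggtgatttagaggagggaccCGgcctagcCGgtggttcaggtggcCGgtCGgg
BOLA3-AS1: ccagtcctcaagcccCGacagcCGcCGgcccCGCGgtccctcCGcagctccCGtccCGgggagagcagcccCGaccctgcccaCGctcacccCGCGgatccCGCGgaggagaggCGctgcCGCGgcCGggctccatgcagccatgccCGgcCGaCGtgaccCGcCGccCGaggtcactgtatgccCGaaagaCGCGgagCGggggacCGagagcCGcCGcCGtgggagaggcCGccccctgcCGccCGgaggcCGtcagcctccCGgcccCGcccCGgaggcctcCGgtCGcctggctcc
KTN1-AS1: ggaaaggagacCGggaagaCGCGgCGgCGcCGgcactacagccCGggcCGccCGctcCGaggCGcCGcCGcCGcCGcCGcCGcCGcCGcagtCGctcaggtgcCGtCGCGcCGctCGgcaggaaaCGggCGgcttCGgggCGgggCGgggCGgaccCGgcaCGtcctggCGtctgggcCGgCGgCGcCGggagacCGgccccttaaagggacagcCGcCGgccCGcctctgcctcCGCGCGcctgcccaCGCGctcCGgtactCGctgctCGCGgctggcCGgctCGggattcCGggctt
DNAJC3-AS1: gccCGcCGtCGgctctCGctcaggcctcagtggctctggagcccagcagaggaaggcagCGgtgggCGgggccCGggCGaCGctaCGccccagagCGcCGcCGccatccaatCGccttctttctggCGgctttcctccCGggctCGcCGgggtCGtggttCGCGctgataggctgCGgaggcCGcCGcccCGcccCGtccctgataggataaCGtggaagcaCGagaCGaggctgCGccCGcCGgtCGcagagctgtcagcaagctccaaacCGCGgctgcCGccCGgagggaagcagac

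These windows shared 251 (ZNF561-AS1), 168 (BOLA3-AS1), 214 (KTN1-AS1) and 287 (DNAJC3-AS1) of their 300 bases with the window of the sense gene. They held 19 CG dinucleotides (ZNF561-AS1), 41 (BOLA3-AS1), 54 (KTN1-AS1) and 37 (DNAJC3-AS1), where the median of all 27305 RefSeq windows was 14. Start windows were known for 376 members, and 73.7% of these held at least 10 CG dinucleotides, against 56.0% of all windows. The share was 94.2% in the 155 members whose start lies at most 1000 bases from that of the sense gene and 58.8% in the 182 with starts farther apart. Among the sense genes, 82.6% of 408 windows held at least 10.

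Motifs were searched on both strands. TATAAA was in 6.91% of the members' windows and in 12.0% of all windows, and GGGCGG, which contains a CG dinucleotide, in 52.7% and 44.6%. CCAAT was in 34.6% of the members' windows and in 35.7% of all, and CCGGAAG, which also contains a CG dinucleotide, in 13.3% and 10.7%. None of the 4 printed windows held TATAAA, and GGGCGG was found 4 times in that of BOLA3-AS1, 5 times in KTN1-AS1, 4 times in DNAJC3-AS1 and 0 times in ZNF561-AS1.

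The antisense RNAs that start in these windows had few counts. ZNF561-AS1 had 29 counts in the shRBM39 IP and 56 in its input, against 35 in the shControl IP and 76 in its input. Its log2 ratios were -1.87 (interval -2.58 to -1.21) in shRBM39 cells and -2.18 (-2.81 to -1.59) in shControl cells, where ZNF561, a zinc finger protein gene, had -0.44 and 0.14. BOLA3-AS1 had 102 counts in the shRBM39 IP and 44 in its input, against 171 in the shControl IP and 71 in its input, with log2 ratios of 0.28 in shRBM39 cells and 0.19 in shControl cells, where BOLA3 had -1.04 and -1.54. ZNF561-AS1 was therefore recovered less than its sense gene and BOLA3-AS1 more, from windows that share most of their bases with the sense promoter. DNAJC3-AS1 had 55 counts in the shRBM39 IP and 16 in its input, against 50 in the shControl IP and 16 in its input, with a difference from DNAJC3 of 1.95 (interval 1.15 to 2.75) in shRBM39 cells and 1.35 (0.54 to 2.16) in shControl cells. KTN1-AS1, with 33 counts in the shRBM39 IP and 18 in its input, against 100 in the shControl IP and 64 in its input, differed from KTN1 by 1.53 (0.71 to 2.35) and 1.28 (0.82 to 1.73).

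The change of recovery is the log2 IP over input in shRBM39 cells minus that in shControl cells. It was at least 2-fold higher in 32 members (6.41%) and at least 2-fold lower in 15 (3.01%), where 4.39% and 2.74% of all features were listed. Of the 379 members with at least 100 summed counts, 4.49% were higher and 2.11% lower. The median change was 0.06 for the members, 0.00 for all features and -0.02 for the sense genes, of which 6 were higher and 6 lower. Scaling to total counts gave the members a median of -0.13 and all features one of -0.20, with 19 members higher (3.81%) and 27 lower (5.41%), where 2.97% and 4.62% of all features were listed. Changing the scaling shifts every feature by the same amount, so the gap between the medians of members and of all features could not change.

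The 5 members that ranked lowest in the change of recovery were RNF185-AS1, BCDIN3D-AS1, SLC25A5-AS1, LACTB2-AS1 and NUCB1-AS1. RNF185-AS1, named after an E3 ubiquitin ligase of the endoplasmic reticulum, had 21 counts in the shRBM39 IP and 20 in its input, against 53 in the shControl IP and 7 in its input. Its change was -2.63 (interval -4.03 to -1.22), and it rests on few counts. SLC25A5-AS1 overlaps the gene of a mitochondrial ADP/ATP carrier. SLC25A5-AS1 had 711 counts in the shRBM39 IP and 443 in its input, against 1141 in the shControl IP and 304 in its input, a change of -1.08 (interval -1.33 to -0.83), and SLC25A5 had -0.96. LACTB2-AS1 had a change of -0.86 beside -0.55 for LACTB2, a mitochondrial ribonuclease, and NUCB1-AS1 one of -0.83 beside -0.62 for NUCB1, a calcium-binding protein of the Golgi. For these deep pairs the sense gene had a change of the same sign.

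The 5 members that ranked highest were CFAP44-AS1, ARHGAP31-AS1, GCC2-AS1, RAB30-AS1 and HMGN3-AS1. CFAP44-AS1, inside a gene for a protein of cilia and flagella, had 76 counts in the shRBM39 IP and 43 in its input, against 44 in the shControl IP and 69 in its input. Its change was 1.60 (interval 0.83 to 2.36), beside 0.61 for CFAP44. RAB30-AS1, whose sense gene encodes a small GTPase of the Golgi, had 390 counts in the shRBM39 IP and 210 in its input, against 400 in the shControl IP and 387 in its input. Its change was 0.98 (0.67 to 1.3), where RAB30 had -0.31. The IP counts of RAB30-AS1 were nearly equal between the cultures, and its input was lower in shRBM39 cells. GCC2-AS1 had a change of 1.88 (0.71 to 3.05), beside 0.00 for GCC2, a golgin of the trans-Golgi, and HMGN3-AS1 one of 0.91 (0.65 to 1.18), beside 0.75 for HMGN3, a nucleosome-binding protein.

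Between members and sense genes, the change of recovery was at least 2-fold higher for the antisense RNA in 26 pairs (5.44%) and lower in 14 (2.93%). The strongest difference came from the sense side. LMO7, a LIM domain protein of cell junctions, had 112482 counts in the shRBM39 IP and 6133 in its input, against 3505 in the shControl IP and 2904 in its input. Its log2 IP over input was 3.27 in shRBM39 cells and -0.80 in shControl cells. LMO7-AS1 overlaps LMO7 over 15561 bases (chr13:75604700-75635994) and had 138 counts in the shRBM39 IP and 96 in its input, against 165 in the shControl IP and 68 in its input, with log2 ratios of -0.41 and 0.20. The antisense minus sense difference in change was -4.68 (interval -5.24 to -4.12). The high LMO7 count of the shRBM39 IP was therefore not seen in the overlapping antisense row.

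SVIL and SVIL-AS1 showed the same arrangement on a smaller scale. Supervillin, the product of SVIL, links actin to membranes. SVIL had 7204 counts in the shRBM39 IP and 958 in its input, against 850 in the shControl IP and 439 in its input, a change of recovery of 2.10. SVIL-AS1 had 628 counts in the shRBM39 IP and 457 in its input, against 559 in the shControl IP and 384 in its input, a change of 0.06. The antisense share of the pair was 8.02% in the shRBM39 IP and 32.3% in its input, against 39.7% in the shControl IP and 46.7% in its input.

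Differences in the other direction were measured for MAN1B1-AS1, EXOC3-AS1 and PSMA3-AS1. PSMA3-AS1, on the gene of a proteasome subunit, had the deepest counts of these, with 1071 in the shRBM39 IP and 784 in its input, against 1163 in the shControl IP and 931 in its input. Its change of recovery was 0.27 and that of PSMA3 was -0.51, a difference of 0.78 (interval 0.58 to 0.98). MAN1B1-AS1, clear of any RefSeq span, had a change of 1.05 where MAN1B1, a mannosidase of the secretory pathway, had -1.04, and EXOC3-AS1 had 1.47 where EXOC3, an exocyst subunit, had -0.29.

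The inputs compare the starting level of each RNA between the cultures. In shRBM39 input, 28 members (5.61%) were at least 2-fold higher and 42 (8.42%) at least 2-fold lower than in shControl input, where 5.10% and 5.74% of all features were listed. Of the 379 members with at least 100 summed counts, 5.28% were higher and 6.07% lower. The median log2 ratio was -0.08 for the members, -0.01 for all features and 0.09 for the sense genes, of which 26 were higher and 10 lower. The antisense RNA was at least 2-fold higher than its sense gene in 7 pairs (1.46%) and lower in 42 (8.79%). In bulk RNA, fewer cells that express an RNA and less of it per cell cannot be told apart.

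VIM-AS1 ranked highest and had a ratio close to that of vimentin, the intermediate filament protein of mesenchymal cells. VIM-AS1 (chr10:17214239-17229985) had 694 counts in the shRBM39 input and 175 in the shControl input, a log2 ratio of 1.97 (interval 1.73 to 2.22). VIM had 2874 counts in the shRBM39 input and 616 in the shControl input, a log2 ratio of 2.21. Their spans share 1745 bases, and VIM-AS1 held 19.5% of the pair in the shRBM39 input and 22.1% in the shControl input. RRM1-AS1, named after the large subunit of ribonucleotide reductase, had 663 counts in the shRBM39 input and 210 in the shControl input, a log2 ratio of 1.64 beside 1.42 for RRM1. DIAPH3-AS1, inside the gene of an actin-nucleating formin, had 1.76 beside 1.44 for DIAPH3, and TRIM31-AS1 had 1.44 beside 1.79 for TRIM31, a ubiquitin ligase. PLCG1-AS1 had 1.40 beside 0.98 for PLCG1, a phospholipase of receptor signalling. In all 5 pairs the sense gene had a log2 ratio of 0.98 or above.

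At the low end, HPN-AS1 had a ratio like that of hepsin, a serine protease abundant in liver. HPN-AS1 had 16 counts in the shRBM39 input and 84 in the shControl input, a log2 ratio of -2.37 (interval -3.28 to -1.62), and HPN had 45 and 241, a log2 ratio of -2.42. KTN1-AS1 had 18 counts in the shRBM39 input and 64 in the shControl input, a log2 ratio of -1.82 (-2.69 to -1.07), where KTN1 had -0.23. FGD5-AS1 was the deepest of the low members, with 1845 counts in the shRBM39 input and 3447 in the shControl input, a log2 ratio of -0.91 (-1.0 to -0.83), just short of 2-fold. The gene FGD5 had 10 counts in the shRBM39 input and 20 in the shControl input, too few to read. OTX2-AS1 had -1.83 and ZNF649-AS1 -1.79, on 11 counts each in the shRBM39 input, against 40 and 39 in the shControl input.

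Among pairs with at least 100 summed counts on both sides, those ranked lowest in the input difference were TRAF3IP2-AS1, TNRC6C-AS1, RAB30-AS1, IDI2-AS1 and KTN1-AS1. Ranking was by the interval bound nearer to 0. TRAF3IP2 encodes an adaptor of interleukin 17 signalling. TRAF3IP2-AS1 had 109 counts in the shRBM39 input and 199 in the shControl input, and TRAF3IP2 had 153 and 73. The log2 ratios were -0.88 and 1.05, so antisense RNA and sense gene lay on opposite sides of 0, with a difference of -1.93 (interval -2.45 to -1.40). For RAB30-AS1 the ratio was -0.89 where RAB30 had 0.60. On the high side SEMA3F-AS1 had 0.43 where SEMA3F, a secreted guidance protein, had -0.59, a difference of 1.02 (0.53 to 1.5).

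**Figure D4:**
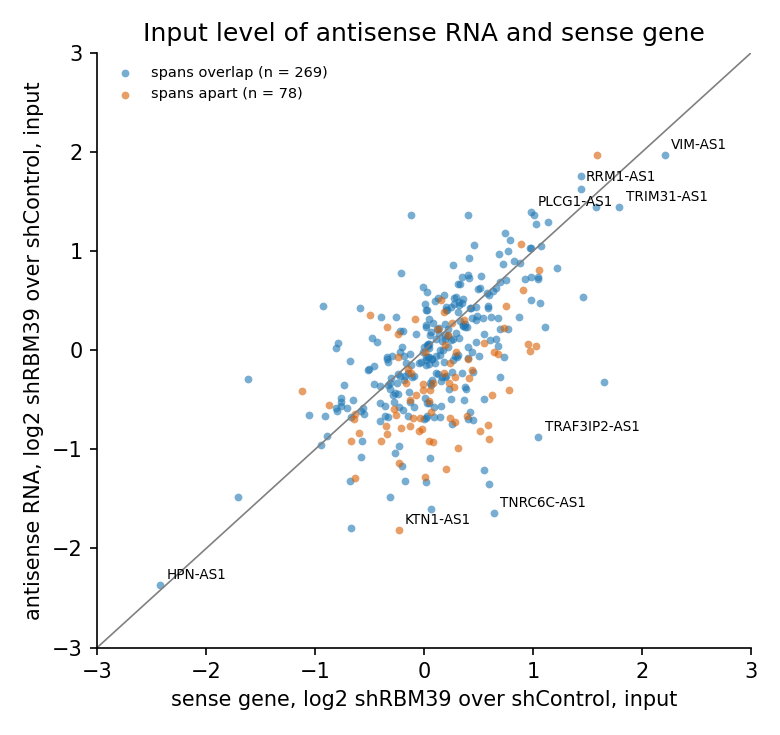
Log2 ratio of shRBM39 input over shControl input for the antisense RNA (vertical axis) and its sense gene (horizontal axis), for pairs with at least 100 summed counts on both sides, with the line at equal values. Blue points are the 269 overlapping pairs and orange points the 78 pairs apart. VIM-AS1 and HPN-AS1 lie near the line at 1.97 and -2.37, and KTN1-AS1 lies below it at -1.82.

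Antisense and sense log2 ratios of the inputs had a Pearson r of 0.55 over 478 pairs, 0.83 over the 97 deep pairs, 0.64 over the 269 overlapping pairs with at least 100 summed counts on both sides and 0.54 over the 78 such pairs apart. As above, the pairs share the libraries and may share reads, and r is given as a description.

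By position, members apart from their sense gene had the lowest medians. Their median log2 IP over input was -0.30 in shRBM39 cells and -0.38 in shControl cells, and the median log2 ratio of the inputs was -0.37. Overlapping members had -0.07 in shRBM39 cells, -0.17 in shControl cells and -0.05 between inputs, and those wholly inside the sense span had 0.06, -0.07 and 0.10. Of the 115 members apart, 8 (6.96%) were higher and 15 (13.0%) lower in the IP of shRBM39 cells, and 2 (1.74%) and 20 (17.4%) in that of shControl cells. Between inputs 2 (1.74%) were higher and 14 (12.2%) lower. Of all features, 5.29% were higher and 9.00% lower in shRBM39 cells, 7.70% and 11.3% in shControl cells, and 5.10% and 5.74% between inputs. Of the 107 inside, the counts were 9 and 10, 10 and 17, and 7 and 6. The sense genes of the members apart had medians of -0.03 in shRBM39 cells, 0.09 in shControl cells and 0.08 between inputs. The low medians were thus found in the antisense rows and not in the sense genes they are named after. The 43 on the span of another gene had medians of -0.38 in shRBM39 cells, -0.52 in shControl cells and -0.41 between inputs. For the 72 clear of any RefSeq span they were -0.23, -0.25 and -0.31. The genes whose spans the 43 lie on were not examined, and the difference between the classes was not tested.

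**Figure D5:**
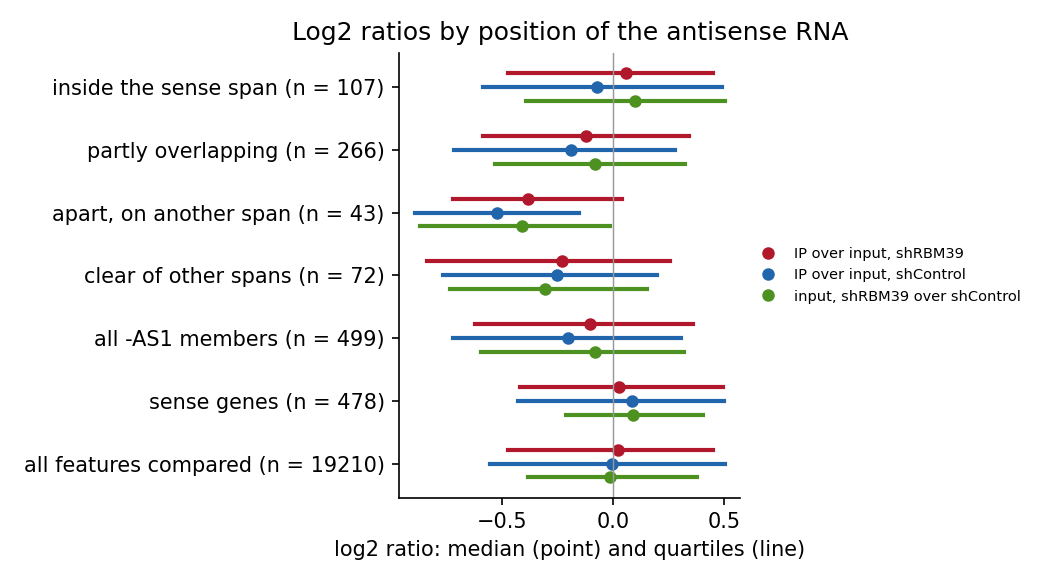
Median (point) and quartiles (line) of the log2 ratio, on the horizontal axis, for members by position, all members, their sense genes and all features. Red is IP over input in shRBM39 cells, blue is IP over input in shControl cells and green is shRBM39 input over shControl input. Members apart from the sense span lie left of the members inside it in all 3 comparisons.

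Grouped by the role of the sense gene, 210 members fell on 1 of 5 lists. Of all features, 5.29% were higher and 9.00% lower in shRBM39 cells, and 7.70% and 11.3% in shControl cells. The 55 antisense RNAs of transcription factor and chromatin genes had a median log2 IP over input of -0.24 in shRBM39 cells and -0.40 in shControl cells. In shRBM39 cells 2 (3.64%) were higher and 7 (12.7%) lower, and in shControl cells 1 (1.82%) and 11 (20%). The deepest on this list was TMPO-AS1, which overlaps the gene of a nuclear lamina protein over 654 bases. TMPO-AS1 had 11173 counts in the shRBM39 IP and 3998 in its input, against 7350 in the shControl IP and 2564 in its input, with log2 ratios of 0.55 in shRBM39 cells and 0.45 in shControl cells, where TMPO had 0.30 and 0.24. PROX1-AS1, whose sense gene specifies hepatocytes and lymphatic cells, had -0.01 in shRBM39 cells and -0.65 in shControl cells. Of the 55, 21 lay above 0 in shRBM39 cells and 18 in shControl cells, TMPO-AS1 among them in both.

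The 26 antisense RNAs of RNA processing, translation and DNA repair genes had medians of -0.07 in shRBM39 cells and -0.22 in shControl cells. In shRBM39 cells 2 (7.69%) were higher and 4 (15.4%) lower, and in shControl cells 0 and 5 (19.2%). PCBP1-AS1, the member with the highest summed counts of all, had 10844 counts in the shRBM39 IP and 3634 in its input, against 10035 in the shControl IP and 3324 in its input. Its log2 ratios were 0.65 in shRBM39 cells and 0.53 in shControl cells, where PCBP1, a poly(C)-binding protein, had 0.70 and 0.65. NIFK-AS1, which overlaps a nucleolar protein gene over 1616 bases, had -0.23 in shRBM39 cells and -0.01 in shControl cells. Neither passed 2-fold.

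The 27 antisense RNAs of adhesion, matrix and cytoskeleton genes had medians of 0.06 in shRBM39 cells and -0.24 in shControl cells and a median change of recovery of 0.36, with 4 higher and 0 lower in that change. On this list FGD5-AS1 had log2 IP over input of -0.94 in shRBM39 cells and -1.55 in shControl cells. TTN-AS1, on the gene of the muscle protein titin, had -0.37 in shRBM39 cells and -1.12 in shControl cells, beside -0.28 and -0.99 for TTN. The 73 of trafficking, ubiquitin and signalling genes had medians of -0.11 in shRBM39 cells and -0.27 in shControl cells. In shRBM39 cells 3 (4.11%) were higher and 3 (4.11%) lower, and in shControl cells 3 (4.11%) and 10 (13.7%). Of these 73, LRRC75A-AS1 had -0.82 in shRBM39 cells and -1.05 in shControl cells, beside -1.23 and -1.34 for LRRC75A.

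The 29 antisense RNAs of liver, lipid and small-molecule metabolism genes had medians of -0.15 in shRBM39 cells and 0.01 in shControl cells. In shRBM39 cells 2 (6.90%) were higher and 2 (6.90%) lower, and in shControl cells 1 (3.45%) and 4 (13.8%). The median change of recovery of these 29 was -0.08, where 0 were higher and 2 (6.90%) lower, against 4.39% and 2.74% of all features. As a comparison outside the members, 55 other antisense-named RNAs (suffixes such as -AS2, -OT1 and -IT1) had medians of -0.31 in shRBM39 cells and -0.04 in shControl cells. In shRBM39 cells 2 (3.64%) were higher and 12 (21.8%) lower, against 5.29% and 9.00% of all features. In shControl cells 2 (3.64%) were higher and 13 (23.6%) lower, against 7.70% and 11.3%. No list was tested, and its counts can only be read beside the shares of all features given above.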

How the data were processed

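For each of 4 libraries the authors deposited raw counts by gene symbol, with no normalization. The submitters' processing notes name StringTie 1.3.4d, HISAT2 2.0.4, cutadapt 1.9 and hg38, without their roles. Which program made the counts, with which strand setting and annotation, is not given in the sources used here. Counts from 3 to 6 were even in 71.4% to 75.6% of cases, so mates of a pair may have been counted singly and counting intervals may be too narrow. An alternative divides the counts by 2.

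Features that reached 10 counts in 2 or more libraries were kept and scaled by TMM (edgeR 4.0.16, R 4.3.3), with factors of 0.904 (shRBM39 IP), 0.979 (shRBM39 input), 1.09 (shControl IP) and 1.03 (shControl input). Pairwise ratios have exact conditional (Clopper-Pearson) 95% intervals, and the change of recovery and the antisense minus sense difference have intervals from counting standard errors, in which library scaling cancels for pairs. No molecular identifiers are stated, so reads may be copies of 1 molecule, and intervals cover counting error only. A model of culture and fraction over all 4 libraries was fitted with edgeR (quasi-likelihood) and, as an alternative, DESeq2 1.42.0. Each step was tested on simulated data.

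Symbols were matched to RefSeq, 414 members by current and 75 by older symbols, with 10 unmatched; an older symbol can point to the wrong locus. Members and gene lists were chosen with earlier results of these data known. Named members are the 10 with the highest summed counts, the 5 highest and 5 lowest of each comparison and of each pair difference (minimum of 100 summed counts, ranking by whichever interval bound lies nearer to 0), and the 3 deepest of each list. No columns of other samples were present. A few members that this rule names are not reported here.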

Additional observations from a re-analysis of the deposited data

How the results depend on the processing

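The culture term of the edgeR model set each IP beside the input of its own culture, and beyond this no paired analysis was possible because each group held 1 library. No library was left out, since that leaves this model no residual degree of freedom. Of 525 checks of single named members, 507 kept direction and side of the threshold, 0 reversed, 16 newly passed 2-fold or 1.5-fold, and 2 (RNF185-AS1 and PARD6G-AS1 between inputs) fell short when the counts were divided by 2, which widens intervals. Among the 507 are 72 checks limited to members with at least 100 summed counts and 21 limited to members apart. These could not change, since a limit on the set leaves a member's own ratio as it was. At 1.5-fold, 60 checks stayed the same and 12 newly passed, and a lower threshold cannot remove a listing. Scaling to total counts gave 19 members higher in the IP of shRBM39 cells, 3.81% against 3.74% of all features. In the change of recovery it gave 19 higher (3.81%) and 27 lower (5.41%), against 2.97% and 4.62% of all features. Member medians were -0.22 (shRBM39 cells), -0.13 (change of recovery) and -0.16 (inputs), and those of all features moved to -0.09, -0.20 and -0.09. Dividing the counts by 2 gave 14 higher in shRBM39 cells, 17 higher and 3 lower in the change of recovery and 17 higher and 24 lower between inputs. For pairs it gave 13 with the antisense RNA higher in each culture, 11 higher and 5 lower in the change of recovery and 2 and 21 between inputs. Members with at least 100 summed counts, a smaller set, gave 29 lower in shRBM39 cells, 44 lower in shControl cells, 17 higher and 8 lower in the change of recovery and 23 lower between inputs. Pairs with that depth on both sides gave 14 higher and 39 lower in shRBM39 cells, 15 and 37 in shControl cells, 14 higher in the change of recovery and 4 and 24 between inputs. A threshold of 1.5-fold gave 58 higher and 96 lower in shRBM39 cells, 55 and 127 in shControl cells, 62 and 30 in the change of recovery and 53 and 83 between inputs. Shares of all features with counts divided by 2, at 100 summed counts or at 1.5-fold are not given here. The member counts under these settings therefore cannot be read against all features. Members apart from the sense span had medians of -0.30 (shRBM39 cells), -0.38 (shControl cells) and -0.37 (inputs). Pairs apart gave 9 higher and 22 lower in shRBM39 cells, 6 and 20 in shControl cells, 10 and 1 in the change of recovery and 0 and 19 between inputs. With 2 added to each count, 15 pairs were higher in shControl cells. With no filter on low counts, the edgeR test called 58 members higher, 11.6% of the members against 13.7% of 33840 features. The same test called 64 members lower, 12.8% against 8.27%. The share called lower was thus above that of all features here and below it with the filter. It called 0 members in each direction with no culture term, and DESeq2 called 16 higher and 29 lower. All other settings stayed within 1.5 times the counts given above. The cause of the other shifts was not tested. Depth limits the lists, since only 379 of the 499 members had at least 100 summed counts.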

Other observations

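Some members were at 0 in a library and were picked after their values were seen. RAPGEF4-AS1 had 0 counts in the shRBM39 IP and 12 in its input, against 0 in the shControl IP and 14 in its input. Taking 3 counts per library as the floor, it was at least 7.61-fold lower in IP than in input in shRBM39 cells and at least 9.78-fold lower in shControl cells. Its sense gene RAPGEF4, an exchange factor activated by cyclic AMP, had 64 counts in the shRBM39 IP and 60 in its input, against 150 in the shControl IP and 79 in its input. The antisense row was thus empty in both IP libraries while the sense row was not.

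LOXL1-AS1 had 0 counts in the shRBM39 input and 38 in the shControl input, at least 12.8-fold lower, and 10 in the shRBM39 IP and 46 in the shControl IP. LOXL1, a crosslinker of elastin, had 0 counts in the shRBM39 input and 24 in the shControl input. LOXL1-AS1 also had the largest change of recovery of all members, 4.26, which rests on the 0.5 added to each count. ZIM2-AS1 had 0 counts in both shRBM39 libraries, against 31 in the shControl IP and 24 in its input, at least 8.07-fold lower between inputs. GLIS3-AS1 went the other way, with 10 counts in the shRBM39 input and 0 in the shControl input, at least 3.30-fold higher, and GLIS3 had 360 and 132. All of these rest on few counts. Against the same floor, 2 of the 30 members listed as higher in the IP of shRBM39 cells, KRBOX1-AS1 and LOXL1-AS1 (at least 1.75-fold each), and 2 of the 23 in shControl cells, CELSR3-AS1 (at least 1.91-fold) and GLIS3-AS1 (at least 1.75-fold), had bounds under 2-fold.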
